A study of Mus musculus with 14 samples.

Results

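The miRNAs described here are the arms of miR-1a, miR-1b, miR-133a, miR-133b, miR-206 and miR-499, known as muscle miRNAs, in small RNA libraries of mouse dorsal root ganglia (DRG), where the somata of sensory neurons lie. They were chosen by name, and 11 of the 1123 mature miRNAs in the files are such arms. Of these, 10 passed a filter of at least 5 CPM (read counts put on a common, scaled library total) in at least 3 of the 14 libraries, against 638 of all 1123. The arm that did not pass was miR-499-3p, with 1 to 18 reads per library.

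The 14 libraries form 4 groups, from the inbred mouse strains CAST/Ei and C57BL/6. There were 3 libraries of CAST/Ei injured, 3 of CAST/Ei naive, 3 of C57BL/6 injured and 5 of C57BL/6 naive ganglia, and the series' text describes them as biological replicates. Injured animals were adult males of 8 to 10 weeks in which smooth forceps had crushed the left sciatic nerve at the notch for 30 s. Naive animals had no treatment. The sources used here do not give the age or sex of naive animals, the time from crush to dissection or which ganglia were taken. The labels name no genetic modification in either strain.

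In skeletal and heart muscle, miR-1 and miR-133 are made together from shared primary transcripts, and miR-206 and miR-133b from another one that is characteristic of skeletal muscle. A hairpin gives 2 arms, called 5p and 3p, of which 1 is usually loaded into Argonaute as the guide strand and the other is mostly degraded. The seed, bases 2 to 8 of the guide strand, sets most of its choice of target mRNAs, and miR-206 has the seed of miR-1. These miRNAs promote myoblast differentiation (miR-1 and miR-206), regulate proliferation and differentiation of muscle precursors (miR-133), and are encoded within a myosin gene in the case of miR-499. In muscle, miR-206 is also known for its rise after denervation. Sensory ganglia are not a tissue these miRNAs are named for.

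The mature sequences that RefSeq gives on GRCm38.p6 are shown for 5 of the 11 arms, to let the seeds be compared. Capitals mark the seed, and each sequence runs 5′ to 3′.
miR-206-3p: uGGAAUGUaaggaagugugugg
miR-133b-3p: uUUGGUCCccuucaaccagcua
miR-1a-1-5p: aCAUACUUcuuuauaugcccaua
miR-499-5p: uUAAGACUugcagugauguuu
miR-499-3p: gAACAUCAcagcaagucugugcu
On the plus strand, miR-206-3p lies at chr1:20679055-20679076 and miR-133b-3p at chr1:20682834-20682855. Also on the plus strand are miR-1a-1-5p at chr2:180389057-180389079, miR-499-5p at chr2:155622893-155622913 and miR-499-3p at chr2:155622929-155622951. Among the 918 miRNAs of the files that matched the RefSeq table, which do not include miR-1a-3p or miR-133a-3p, the seed of miR-206-3p was held by 3, the others being miR-6349 and miR-6382, and each other seed shown by 1.

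In the GENCODE annotation of GRCm38, which may not be the build the authors used, the genes lie in 3 clusters, with Mir499 apart from them. Mir206 and Mir133b are 3686 bp apart on chromosome 1 and both touch an exon of the lincRNA Gm28653. Mir1a-1 and Mir133a-2 are 9254 bp apart on chromosome 2. Mir1a-2 and Mir133a-1 are 2504 bp apart on the minus strand of chromosome 18, within introns of Mib1, which runs on the plus strand. Both also lie within introns of Mir133a-1hg, a gene on their own strand that is annotated as antisense RNA. Mir1b lies on the plus strand there and covers all 72 bp of Mir1a-2. Mir499 lies in an intron of Myh7b, a myosin heavy chain gene, on chromosome 2 and on the same strand. The 3p arms of the miR-1a copies share 1 mature sequence, as do the 3p arms of the miR-133a copies, so those arms are summed over loci. Only the 5p arms tell miR-1a-1 from miR-1a-2. The sources used here do not say whether strand was used in counting, so reads of miR-1b-5p and of miR-1a-3p, which are antisense to each other, cannot be told apart. The levels of the near-identical miR-133a-3p and miR-133b-3p are uncertain too, since the counting could have split reads between them.

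The libraries held 4007706 to 15642360 reads, and 1 read was worth 0.0674 to 0.253 CPM. A floor of 3 reads lay between 0.202 and 0.760 CPM. The intervals given below come from the spread between libraries and not from read counts. Neuronal marker miRNAs (7 of 7 measured) summed to between 103355 and 166741 CPM, and those of heart muscle (3 of 4 measured, 1 of them above 0 in every library, none past the filter) to between 0.548 and 5.89 CPM. Libraries 4 and 5 of the C57BL/6 naive group differed from the other 12 libraries. The liver marker miR-122-5p was at 660.6 CPM in library 4 and 368.9 CPM in library 5, against 8.63 to 39.8 CPM in the other 12. Markers of myelinating glia summed to 8628 and 8044 CPM in those libraries, and epithelial markers to 1591 CPM in library 4. Results that change with these libraries are given with and without them.

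miR-1a-3p, the guide strand of miR-1, was the most abundant muscle miRNA in every library and ranked 36 of 1123 by mean level. It averaged 5910 ± 369 CPM in CAST/Ei injured, 8653 ± 1518 CPM in CAST/Ei naive, 8262 ± 481 CPM in C57BL/6 injured and 9722 ± 3863 CPM in C57BL/6 naive ganglia (SD, n = 3, 3, 3 and 5 libraries). The 11 arms together took 0.782 to 0.957% of the reads in CAST/Ei injured, 0.887 to 1.21% in CAST/Ei naive, 1.08 to 1.13% in C57BL/6 injured and 0.468 to 1.68% in C57BL/6 naive libraries. miR-1a-3p supplied 54.4% of that sum in C57BL/6 naive library 4 and 70.2 to 80.2% in the other libraries.

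By mean over the 14 libraries, miR-1a-3p stood first at 8363 CPM, and its lowest library exceeded the highest of any other arm. miR-133a-3p followed at 1285 CPM and miR-1b-5p at 1115 CPM, neighbours whose ranges overlapped (667 to 2046 CPM and 525 to 1785 CPM). Next came miR-133b-3p at 175 CPM, miR-1a-1-5p at 96.1 CPM, miR-133a-5p at 93.4 CPM and miR-206-3p at 60.7 CPM, again with ranges that overlapped. Near the filter were miR-499-5p at 9.29 CPM, miR-1a-2-5p at 4.03 CPM and miR-1b-3p at 3.84 CPM. Last was miR-499-3p at 0.957 CPM. miR-1a-2-5p reached 5 CPM in 3 libraries, all of them C57BL/6 naive, so it passed the filter through that group alone and its differences from that group are not independent of the filter. miR-1b-3p reached 5 CPM in 4 libraries, all of them C57BL/6, so its differences between strains are not independent of the filter either.

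**Figure D1:**
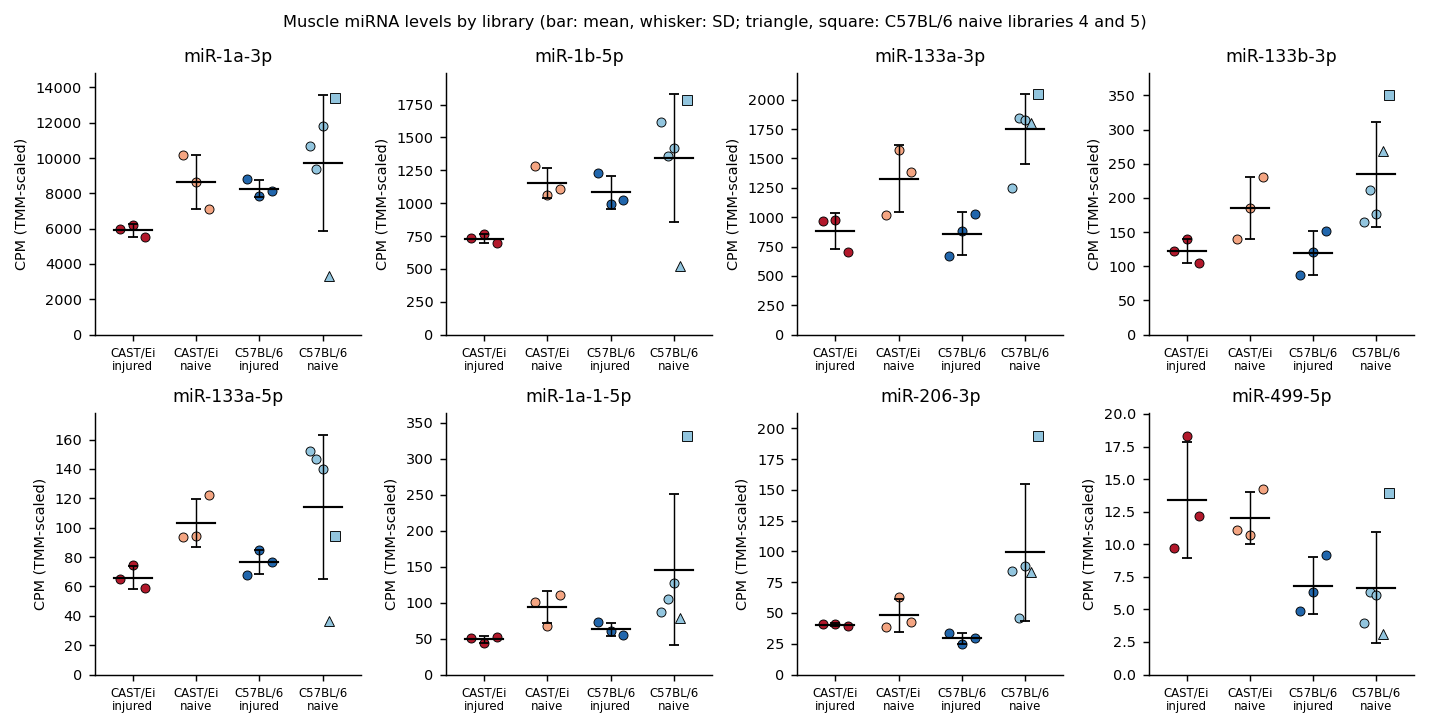
Level in each library of 8 muscle miRNAs, in CPM on a linear axis from 0, in CAST/Ei injured, CAST/Ei naive, C57BL/6 injured and C57BL/6 naive ganglia; each symbol is 1 library, bars are means and whiskers SD, with C57BL/6 naive library 4 as a triangle and library 5 as a square. miR-206-3p lies between 24.5 and 33.8 CPM in the C57BL/6 injured libraries, below all 5 C57BL/6 naive ones, while miR-1a-3p in C57BL/6 naive library 4 (3338 CPM) is the lowest of all 14.

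In C57BL/6, 2 of the 10 tested muscle miRNAs fell after the crush, miR-133a-3p and miR-206-3p, and none rose. By limma with Benjamini-Hochberg adjustment over all 638 miRNAs, 0.784% of them fell and 3.13% changed in either direction at an adjusted p under 0.05. That is 5 lower and 15 higher, and 1 lower and 15 higher with values scaled to 1000000 per library. These are bulk ganglia, in which fewer cells of a type and less RNA per cell cannot be told apart.

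miR-206-3p, the miRNA most restricted to skeletal muscle of the set, was at 33.8, 24.5 and 29.9 CPM in C57BL/6 injured libraries 1 to 3, against 84.3, 46.1, 88.4, 83.5 and 194 CPM in C57BL/6 naive libraries 1 to 5. Every injured value lay below every naive one, and naive library 5 was the highest of all. On the log2(CPM + 1) scale, which understates changes of low miRNAs, the difference was −1.58 ± 0.36 (SE; limma adjusted p = 0.0215), and −1.24 without naive libraries 4 and 5 (adjusted p = 0.0187). Without C57BL/6 injured library 1, 2 or 3 the adjusted p was 0.0717, 0.142 and 0.0940, and with the C57BL/6 groups fitted alone it was 0.127, within a range of 0.000108 to 0.142 over 26 alternatives.

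miR-133a-3p, the guide strand from both miR-133a copies, was at 667, 878 and 1030 CPM in the injured libraries and at 1250, 1842, 1830, 1798 and 2046 CPM in the naive ones. The groups did not overlap here either, and naive libraries 4 and 5 were near the other naive values. The difference was −1.03 ± 0.24 (SE; limma adjusted p = 0.0288), or −0.93 without naive libraries 4 and 5 (adjusted p = 0.0401). The call was lost without C57BL/6 injured library 1, 2 or 3 (adjusted p = 0.197, 0.120 and 0.0672), and marginally without C57BL/6 naive library 2 (0.0505) or CAST/Ei injured library 1 (0.0503). It was lost as well with the C57BL/6 groups fitted alone (0.127), with values scaled to 1000000 per library (0.0862) and with the 3 most abundant miRNAs omitted from the total (0.0850). Over 26 alternatives the adjusted p ran from 0.00166 to 0.197.

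The clustered partner of miR-206, miR-133b-3p, was at 86.7, 121 and 151 CPM in injured and 165, 211, 176, 268 and 351 CPM in naive C57BL/6 ganglia. The groups did not overlap, and the difference of −0.94 ± 0.29 (SE) did not pass the adjustment (limma adjusted p = 0.0840). miR-1a-1-5p, the passenger arm of the miR-1a copy on chromosome 2, was at 73.2, 60.9 and 54.4 CPM in injured and 87.7, 105, 127, 78.6 and 332 CPM in naive ganglia. Its difference was −0.99 ± 0.38 (SE; limma adjusted p = 0.142), with groups that did not overlap. In all, 4 of the 10 had injured libraries wholly below the naive ones, a pattern shown by 6.27% of the 638.

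The most abundant of the set, miR-1a-3p, was at 8787, 7844 and 8155 CPM in C57BL/6 injured ganglia, inside the naive range of 3338 to 13406 CPM. Its difference was −0.09 with a 95% interval of −0.84 to 0.66 (limma adjusted p = 0.891), and 0.05 where values were scaled to 1000000 per library. Without naive libraries 4 and 5 the remaining naive values were 10656, 9395 and 11816 CPM, all above the injured ones. The antisense miR-1b-5p had 1227, 995 and 1024 CPM in injured and 525 to 1785 CPM in naive ganglia (difference −0.20, limma adjusted p = 0.724). miR-133a-5p, the passenger arm of miR-133a, had a difference of −0.41 (limma adjusted p = 0.538), with 68.1 to 84.8 CPM in injured libraries, against 36.2 CPM in naive library 4 and 94.6 to 152 CPM in the other naive ones. Without naive libraries 4 and 5 its difference was −0.93 and passed the threshold (limma adjusted p = 0.0131, over 26 alternatives 0.0131 to 0.755), so that fit called 3 of the 10, among 29 of the 638 (23 higher, 6 lower). The 3 low arms gave −0.85 for miR-1a-2-5p, 0.14 for miR-499-5p and 0.50 for miR-1b-3p, with adjusted p of 0.392, 0.838 and 0.390 by limma. The direction of miR-499-5p turned in the count models, at −0.06 with edgeR and −0.04 with DESeq2.

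Across the 10 tested arms, the median C57BL/6 injury difference was −0.63, with 8 below 0, against 0.12 over all 638, of which 42.5% were below 0. Scaling to 1000000 per library moved the median of all 638 to 0.26 and that of the 10 to −0.51.

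In CAST/Ei no muscle miRNA passed the threshold after injury. Limma called 1.10% of the 638 there, all of them higher, and none of the 10 had an unadjusted p under 0.05, against 6.43% of the 638. edgeR and DESeq2 also called none of the 10. Other fits of the same CAST/Ei libraries gave more arms an unadjusted p under 0.05, all of them lower in injured ganglia. They were 6 without C57BL/6 naive libraries 4 and 5, 6 with the CAST/Ei groups fitted alone and 5 without C57BL/6 naive library 4. With the replicate number as a block they were also 6, and that fit called 1 of them. Deviations of same-numbered CAST/Ei naive and injured libraries correlated at 0.149, 0.0189 and −0.0381, which does not establish that they are pairs.

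Values in CAST/Ei nevertheless lay lower after injury for most arms. miR-1a-3p was at 5989, 6233 and 5507 CPM in CAST/Ei injured ganglia and at 10163, 8669 and 7127 CPM in CAST/Ei naive ganglia. The groups did not overlap, and the difference was −0.54 ± 0.39 (SE; limma adjusted p = 0.793). miR-1b-5p was at 734, 764 and 694.5 CPM in injured and 1282, 1064 and 1110 CPM in naive libraries, a difference of −0.65 (adjusted p = 0.676), also without overlap. miR-133a-3p had 970, 979 and 707 CPM in injured and 1021, 1576 and 1389 CPM in naive libraries. Its difference was −0.58 ± 0.27 (SE; limma adjusted p = 0.667).

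miR-206-3p, which fell in C57BL/6, was at 41.1, 41.3 and 39.3 CPM in CAST/Ei injured and 38.6, 63.4 and 42.5 CPM in CAST/Ei naive ganglia. The ranges overlapped, and the difference was −0.21 with a 95% interval of −1.06 to 0.64 (limma adjusted p = 0.938), turning to 0.05 when values were scaled to 1000000 per library and to 0.02 when the 3 most abundant miRNAs were left out of the total. miR-133b-3p was at 122, 140 and 105 CPM in injured and 140, 185 and 230 CPM in naive libraries (difference −0.57). The passenger arms gave −0.89 for miR-1a-1-5p and −0.63 for miR-133a-5p, each without overlap. The low arms gave −0.41 for miR-1a-2-5p, 0.11 for miR-499-5p and −0.06 for miR-1b-3p, with injured and naive values overlapping. Of the 10 arms, 5 had injured libraries wholly below the naive ones, a pattern shown by 16.5% of the 638. The median over the 10 was −0.55, with 9 below 0, against −0.09 over all 638, of which 57.1% were below 0. Partners that the counting may not separate are counted as separate arms among the 9 too. Scaling to 1000000 per library moved these medians to −0.29 and 0.15.

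**Figure D2:**
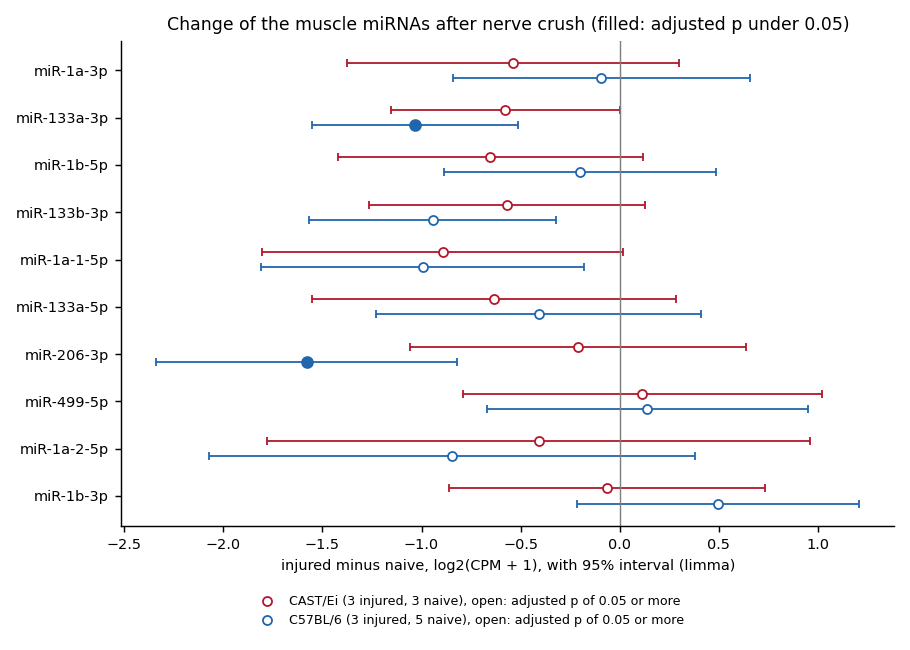
Difference of injured minus naive ganglia on the log2(CPM + 1) scale for the 10 tested muscle miRNAs, with 95% intervals from limma, in CAST/Ei (red, upper of each pair) and C57BL/6 (blue); filled points have an adjusted p under 0.05. The filled points are miR-206-3p at −1.58 and miR-133a-3p at −1.03, both in C57BL/6, and the CAST/Ei intervals all reach 0.

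Averaged over both strains, 1 of the 10 fell, miR-133a-3p, by 0.81 (SE 0.18; limma adjusted p = 0.0178), where 1.10% of the 638 fell and 4.23% changed in either direction, 7 lower and 20 higher (1 and 28 with values scaled to 1000000 per library). Its adjusted p ran from 0.00303 to 0.124 over 26 alternatives, and it missed the threshold without CAST/Ei injured library 3 (0.0784), without CAST/Ei naive library 2 (0.0521) and without C57BL/6 injured library 1 (0.0738). miR-206-3p, miR-133b-3p and miR-1a-1-5p had averaged differences of −0.89, −0.76 and −0.94 with adjusted p of 0.0752, 0.0720 and 0.0803. Without C57BL/6 naive library 2, 3, 4 or 5 the averaged count was 2, 2, 4 and 3, and without both libraries 4 and 5 it was 7 of the 10, in a fit that called 55 of the 638 (21 lower and 34 higher). The 7 were miR-1a-3p, miR-1b-5p, miR-1a-1-5p, miR-133a-3p, miR-133a-5p, miR-133b-3p and miR-206-3p.

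The injury effects of the strains were compared directly as CAST/Ei minus C57BL/6. By limma none of the 638 passed (0.00%) and 8.15% were under 0.05 before adjustment. edgeR called 1 of the 638 and DESeq2 9. Among the 10 muscle miRNAs, miR-206-3p had an unadjusted p under 0.05, with an effect of −0.21 in CAST/Ei and −1.58 in C57BL/6. The difference of effects was 1.37 ± 0.53 (SE; limma adjusted p = 0.529), so the strains were not shown to differ. For miR-133a-3p the difference was 0.46 (adjusted p = 0.596), with a 95% interval of −0.32 to 1.23.

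Summed levels of marker miRNAs of other cells also differed between injured and naive ganglia. Neuronal markers summed to 103355 to 112086 CPM in CAST/Ei injured, against 131192 to 146863 CPM in CAST/Ei naive libraries. In C57BL/6 they summed to 108277 to 112744 CPM in injured, against 133376 to 166741 CPM in naive libraries. One of these markers, miR-138-5p, averaged 80780 CPM over the 14 libraries, so the neuronal sums rest largely on it. The markers of myelinating glia (4 of 4 measured) lay lower in CAST/Ei injured libraries, at 30720 to 32124 CPM against 37058 to 42868 CPM in CAST/Ei naive ones, and lay higher in C57BL/6 injured libraries, at 36607 to 45396 CPM against 8044 to 35829 CPM in C57BL/6 naive ones. Smooth muscle markers (5 of 5 measured) overlapped between injured and naive libraries, with 15266 to 16614 CPM against 14442 to 19554 CPM in CAST/Ei, and 9153 to 12495 CPM against 9009 to 15402 CPM in C57BL/6. In CAST/Ei, red blood cell markers (5 of 9 measured) were lower in injured libraries, at 7680 to 9173 against 9682 to 13468 CPM. Fibroblast markers (6 of 6 measured) were lower there too, at 3806 to 3964 against 4105 to 4814 CPM. In C57BL/6, endothelial markers (2 of 4 measured) were higher in injured libraries, at 18408 to 20895 against 11212 to 16081 CPM. Each of these overlapped in the other strain, and leukocyte, epithelial and liver sums overlapped in both. Heart muscle markers stayed at or under 5.89 CPM throughout. The part of any of these in the muscle miRNA results was not tested.

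Between strains, none of the 10 differed by limma in naive ganglia (11.1% of the 638 did, 33 lower and 38 higher in CAST/Ei, or 38 and 20 with values scaled to 1000000 per library) or in injured ganglia (3.29% did). In naive ganglia, miR-206-3p was at 38.6, 63.4 and 42.5 CPM in CAST/Ei and at 46.1 to 194 CPM in C57BL/6, a difference of −0.91 ± 0.36 (SE; limma adjusted p = 0.0951). Its adjusted p was 0.0374 by limma without C57BL/6 naive library 2 and 0.0176 with DESeq2, within a range of 0.0176 to 0.260 over 26 alternatives. miR-1a-2-5p was at 0.579, 2.0 and 2.58 CPM in CAST/Ei and 1.78 to 25.8 CPM in C57BL/6, a difference of −1.28 (limma adjusted p = 0.142). It passed the filter through C57BL/6 naive libraries alone, so this difference is not independent of the filter.

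miR-499-5p, from the myosin gene intron, had the highest positive difference between naive strains of the 10. It had 11.1, 10.7 and 14.3 CPM in CAST/Ei naive libraries, against 3.97, 6.32, 6.08, 3.10 and 13.9 CPM in C57BL/6 naive libraries 1 to 5. C57BL/6 naive library 5 alone lay within the CAST/Ei range. The difference was 0.90 ± 0.38 (SE; limma adjusted p = 0.122). It was 1.18 without naive library 5 (adjusted p = 0.0279), 1.02 without libraries 4 and 5 (0.0399) and 1.02 with the replicate number as a block (0.0241), within a range of 0.0241 to 0.293 over 26 alternatives. In injured ganglia miR-499-5p was at 9.68, 18.3 and 12.2 CPM in CAST/Ei and 4.88, 6.37 and 9.20 CPM in C57BL/6. The difference of 0.87 was close to the one in naive ganglia (limma adjusted p = 0.600).

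Also in injured ganglia, miR-1a-3p was at 5507 to 6233 CPM in CAST/Ei and 7844 to 8787 CPM in C57BL/6, a difference of −0.48 with a 95% interval of −1.32 to 0.35. miR-206-3p was at 39.3 to 41.3 CPM in CAST/Ei and 24.5 to 33.8 CPM in C57BL/6, a difference of 0.46. For miR-1b-5p the difference was −0.56 and for the low arm miR-1b-3p −0.71. Of the 10 arms, 7 did not overlap between the injured groups, 5 lower and 2 higher in CAST/Ei, and 35.9% of the 638 did not overlap either. Among the lower ones were miR-1a-2-5p and miR-1b-3p, which passed the filter through C57BL/6 libraries alone. A fit of the injured groups by themselves called miR-1a-3p and miR-1b-5p, among 105 of the 638 (37 higher and 68 lower in CAST/Ei). miR-133a-3p and miR-133b-3p had differences of 0.05 and 0.06 between injured CAST/Ei and C57BL/6 ganglia, with intervals of −0.53 to 0.63 and −0.63 to 0.76.

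Ratios between arms, which do not depend on the scaling of a library, split the set into pairs that kept close proportions and pairs that did not. miR-1b-5p was 13.4 ± 1.33% of miR-1a-3p (SD, n = 14 libraries), with a range of 12.04 to 15.7%. miR-133b-3p was 13.7 ± 1.99% of miR-133a-3p, with a range of 9.62 to 17.2%. In both pairs the counting could not separate the partners with certainty, as described for their sequences.

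Within the miR-133a hairpins the 5p arm was 2.01% of the 3p arm in C57BL/6 naive library 4, 4.62% in naive library 5 and 5.98 to 12.2% in the other 12. The 5p arm of miR-1a-1 was 0.666 to 1.55% of miR-1a-3p in those 12 libraries, and 2.35% and 2.47% in naive libraries 4 and 5. miR-1a-2-5p was 3.28 ± 1.90% of miR-1a-1-5p (SD, n = 14), with a range of 0.573 to 7.77%, so the 5p reads assigned to chromosome 2 outnumbered those assigned to chromosome 18 in every library. miR-206-3p was 18.5 to 55.2% of its cluster partner miR-133b-3p. miR-133a-3p was 12.8 to 16.2% of miR-1a-3p in CAST/Ei injured, 10.0 to 19.5% in CAST/Ei naive and 7.60 to 12.6% in C57BL/6 injured libraries. It was 11.7 to 19.6% in 4 C57BL/6 naive libraries and 53.9% in library 4.

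**Figure D3:**
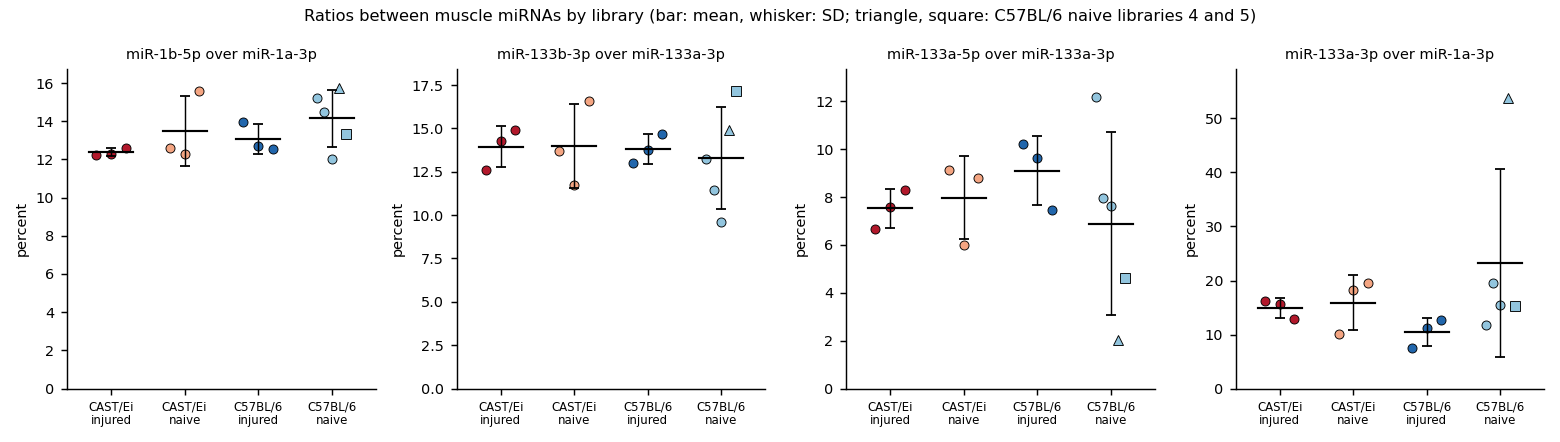
Ratio of 1 muscle miRNA to another in each library, in percent on linear axes from 0, by group; bars are means and whiskers SD, with C57BL/6 naive library 4 as a triangle and library 5 as a square. miR-1b-5p stays between 12.04 and 15.7% of miR-1a-3p, whereas miR-133a-3p reaches 53.9% of miR-1a-3p in C57BL/6 naive library 4 and no more than 19.6% elsewhere.

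Whether the arms rose and fell together across libraries was measured by correlations of log2(CPM + 1) for the 45 pairs of the 10 arms. Over the 14 libraries, 16 pairs passed a permutation test of Pearson's r with Benjamini-Hochberg adjustment over the 45, each of them positive (r from 0.611 to 0.963). By Spearman's rho 10 passed. Some of the 16 pairs hold miR-1a-2-5p, which passed the filter through C57BL/6 naive libraries alone. Their r is not independent of the filter. Without C57BL/6 naive library 5 the count by r was 4, and without CAST/Ei injured library 1, 2 or 3 it was 10, 10 and 9. The median r of the 45 pairs was 0.35, with 84.4% above 0, against 0.01 and 51.0% over the 203203 pairs of the 638. These 14 libraries come from 4 groups, so a shared group difference can contribute to such an r.

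Taking each library as its deviation from its group mean removes that share. No pair passed then (adjusted permutation p of 0.119 or more, 5 pairs with an unadjusted p under 0.05, 0 by rho), although the median r was 0.48. Without C57BL/6 naive libraries 4 and 5 the median r of the deviations was −0.04, with 21 of 45 pairs above 0, against 0.02 over all pairs. With both libraries, 37 of 45 had been above 0. Over the same 12 libraries, without removal of group means, the median r was 0.50 and 9 pairs passed.

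The 2 pairs with the highest r were those that share sequence or strand-opposed loci. miR-1a-3p and miR-1b-5p had r = 0.963 and rho = 0.965 over the 14 libraries (permutation p = 1e-05 for each, the smallest these permutations give, adjusted p = 0.000225). Without the 2 libraries farthest from the median of miR-1a-3p, which were C57BL/6 naive libraries 4 and 5, r was 0.944. On deviations r was 0.971 (adjusted permutation p = 0.119), and 0.595 without libraries 4 and 5. miR-133a-3p and miR-133b-3p had r = 0.918 and rho = 0.938 (permutation p = 1e-05 and adjusted p = 0.000225 for each), and r = 0.890 without the 2 libraries farthest on miR-133a-3p. On deviations their r was 0.774, and 0.815 without naive libraries 4 and 5 (adjusted permutation p = 0.120 and 0.296).

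miR-1a-3p and miR-133a-3p had r = 0.229 and rho = 0.459 over 14 libraries (adjusted permutation p = 0.655 and 0.185), r = 0.546 without naive libraries 4 and 5, and r = 0.653 without naive library 4 alone (adjusted permutation p = 0.0381). The arms of miR-133a gave r = 0.354 and rho = 0.587 (adjusted permutation p = 0.435 and 0.0974), r = 0.836 without naive libraries 4 and 5 (adjusted permutation p = 0.0121), and r = 0.748 without naive library 4 alone (0.0176). miR-133b-3p and miR-206-3p, neighbours on chromosome 1, gave r = 0.754 and rho = 0.771 (permutation p = 0.00163 and 0.00183, adjusted p = 0.0105 and 0.0137). Their r was 0.575 without the 2 libraries farthest on miR-133b-3p and 0.486 without naive libraries 4 and 5. On deviations it was 0.423 (adjusted permutation p = 0.589), and −0.223 without naive libraries 4 and 5. Deviations of miR-1a-3p and miR-133a-3p gave r = −0.077, and −0.265 without naive libraries 4 and 5. For the arms of miR-133a they gave −0.071, and 0.367 without those libraries.

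The 5p arms of the miR-1a copies gave r = 0.836 and rho = 0.626 (permutation p = 0.00154 and 0.0192, adjusted p = 0.0105 and 0.0720). Without the 2 libraries farthest on miR-1a-1-5p, C57BL/6 naive library 5 and CAST/Ei injured library 2, r was 0.532. The pair still passed without CAST/Ei injured library 2 alone but not without C57BL/6 naive library 5 alone, so the relation rests in part on the latter. miR-1a-3p and the 5p arm of miR-133a had r = 0.794 and rho = 0.771 (adjusted permutation p = 0.0105 and 0.0144). Without naive libraries 4 and 5 their r was 0.734. On deviations it was 0.775, and −0.513 without those libraries (adjusted permutation p = 0.589 and 0.625). miR-499-5p passed with none of the other 9, with r from −0.121 to 0.127, and from −0.683 to 0.128 without naive libraries 4 and 5. On deviations its r with the other 9 was 0.317 to 0.816, and −0.418 to 0.735 without those libraries, again with none passing.

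**Figure D4:**
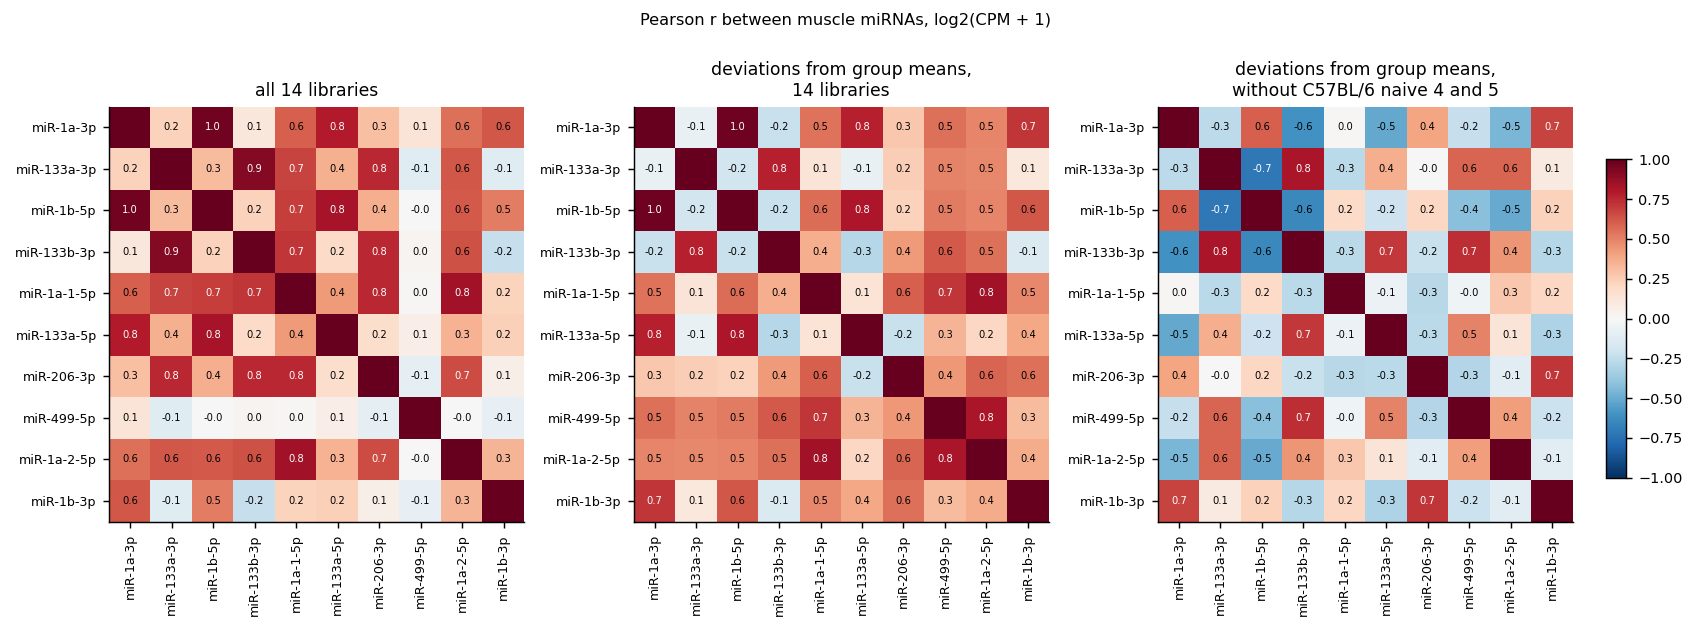
Pearson's r of log2(CPM + 1) between each pair of the 10 tested muscle miRNAs, as a colour scale from −1 to 1, over all 14 libraries (left), on deviations from group means (middle) and on deviations without C57BL/6 naive libraries 4 and 5 (right). The mostly positive middle panel (median r 0.48) gives way to mixed signs on the right (median −0.04), where miR-133a-3p with miR-133b-3p keeps r = 0.815.

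**Figure D5:**
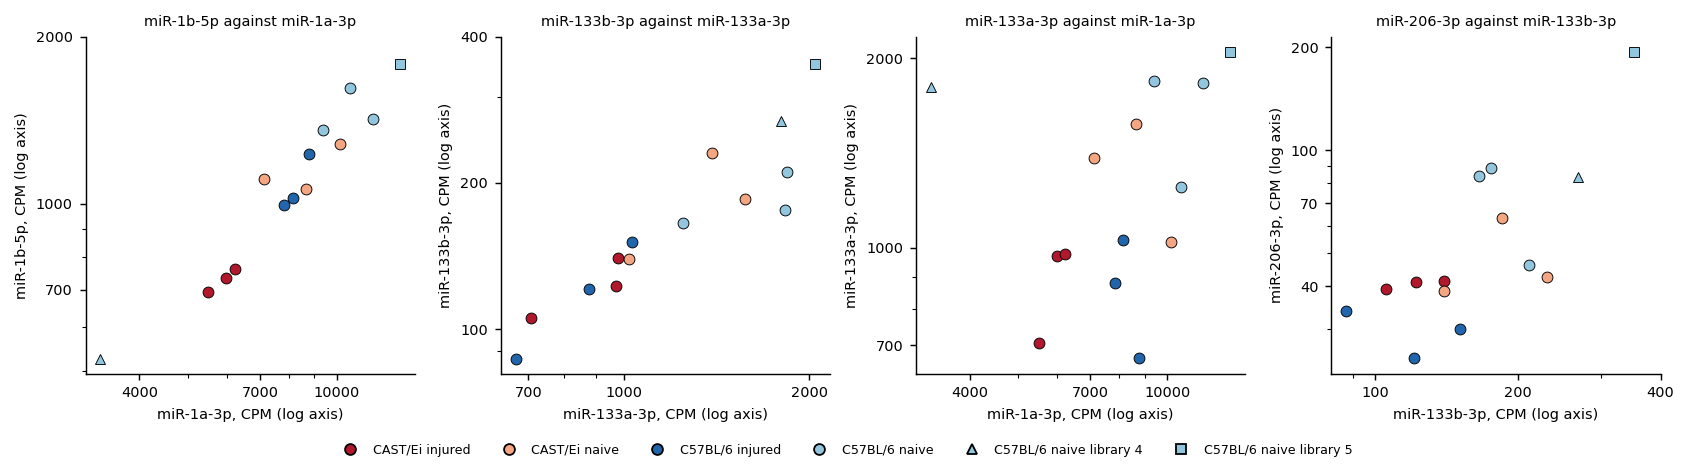
Levels of 2 muscle miRNAs against each other in the 14 libraries, in CPM on log axes, coloured by group, with C57BL/6 naive library 4 as a triangle and library 5 as a square. miR-1b-5p follows miR-1a-3p through the whole range (r = 0.963), while library 4 pairs the lowest miR-1a-3p (3338 CPM) with a high miR-133a-3p (1798 CPM).

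Library 4 of C57BL/6 naive split the set. It had the lowest miR-1a-3p, miR-1b-5p (525 CPM) and miR-133a-5p (36.2 CPM) of all 14 libraries, and the second-highest miR-133b-3p (268 CPM). Library 5 had the highest level of miR-1a-3p, miR-1b-5p, miR-133a-3p, miR-133b-3p, miR-1a-1-5p, miR-1a-2-5p and miR-206-3p.

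Outside the set, the miRNAs most like miR-1a-3p by r over the 14 libraries were miR-497-3p (0.787), miR-3069-3p (0.758), miR-1843b-3p (0.728), miR-3074-1-3p (0.713) and miR-19b-1-5p (0.698). Those most like miR-133a-3p were miR-7047-3p (0.860), miR-138-5p (0.840), miR-490-3p (0.792), miR-5126 (0.732) and miR-3473b (0.725). miR-206-3p was most like miR-3102-3p.2-3p (0.841), miR-92b-3p (0.840), miR-182-5p (0.812), miR-490-3p (0.804) and miR-20b-3p (0.803). No miRNA of these lists was among the 5 most like on deviations from group means. They were picked for their r, which is a description.

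Of 18 other miRNAs linked to muscle or to myogenesis that were measured, 14 passed the filter. miR-431-5p, a regulator of muscle satellite cells in mice, was the 1 that passed after injury, higher by 1.93 in CAST/Ei and by 1.69 in C57BL/6 (limma adjusted p = 0.00269 and 0.00283), and none was lower. The median injury difference of the 14 was −0.18 in CAST/Ei and −0.07 in C57BL/6. miR-486-5p and miR-486-3p, which muscle and red blood cells both hold, had −1.84 and −1.42 in C57BL/6 (adjusted p = 0.0953 and 0.0790). Between strains miR-322-5p was higher in CAST/Ei naive ganglia by 1.43 (adjusted p = 0.0150), and none of the 14 differed between the injured groups or in the injury effect.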

How the data were processed

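Small RNA from 14 DRG libraries was analysed. Per the labels' protocols, RNA came from dissociated ganglia with the miRVana kit, and libraries from the Ion Total RNA-Seq kit. Bowtie2 was used, per the submitters' processing notes; the sources used here give no version, genome build or miRNA release. The deposited files hold 1 signal value per miRNA, which is CPM on TMM-scaled library totals and is called CPM throughout; plain CPM had been planned for. Every value was a whole multiple of 1 read, and the recovered reads served edgeR 4.0.16 and DESeq2 1.42.0. In C57BL/6 injured library 1 that recovery is less certain, so edgeR was also run without it.

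Values were fitted as log2(CPM + 1) with limma-trend 3.58.1 (R 4.3.3), with 1 mean for each of the 4 groups over 14 libraries, for the 638 miRNAs that reached 5 CPM in 3 or more libraries. All tests are two-sided, p-values were adjusted over the 638 and the threshold was 0.05. Correlations used 100000 permutations, within groups for deviations. The fit and the correlations were tested on simulated data. The 10 tested arms are all named, with the 5 miRNAs most like each of 3 arms. The muscle miRNAs, marker lists and tests were chosen with earlier results of these data known. Same-numbered libraries of the compared naive groups had weak correlations of their deviations, of 0.104 to 0.114. By the rule used (every pair over 0.1) those numbers were treated as pairs, which such values do not establish. The pairing comes from the data and not from the labels. Alternatives changed the pseudocount, filter, scaling, libraries, block or tool.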

Additional observations from a re-analysis of the deposited data

Results flagged for a closer look

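Within the 5 C57BL/6 naive libraries, a gap ratio (the distance of the highest or lowest library to its nearest neighbour over the whole range) above 0.710, Dixon's 95% value for 5 samples, marked 4 of 38 tests on 19 series of values. Chance marks about 1 in 20 groups. Library 5 stood above the rest in miR-1a-1-5p, with 332 CPM against 78.6 to 127 CPM in the other 4 and a gap ratio of 0.809. It did so in miR-1a-2-5p, with 25.8 CPM against 1.78 to 6.40 CPM and a ratio of 0.807, and in miR-206-3p, with 194 CPM against 46.1 to 88.4 CPM and a ratio of 0.713. Library 4 stood apart in the level of miR-133a-3p relative to miR-1a-3p, at 53.9% against 11.7 to 19.6%, with a ratio of 0.813. Groups of 3 libraries were not tested.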

How the results depend on the processing

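Over 51 results and 1249 values from alternatives, 1167 kept their direction and side of the threshold, 26 lost and 41 gained a call, and 15 turned direction. Some alternatives could not move a difference within a strain, such as another filter or leaving out a library of the other strain. The share kept therefore does not measure stability. The count of called muscle miRNAs after injury in C57BL/6 (2) was 1 with values scaled to 1000000 per library or with a total that omits the 3 most abundant miRNAs, 0 with the compared groups fitted alone, 3 without naive libraries 4 and 5, 3 with the replicate number as a block, 4 with DESeq2, and 0 with edgeR without C57BL/6 injured library 1 (an alternative chosen after seeing the data, against 2 with edgeR on all libraries). Leaving out single libraries gave 0 to 3. In CAST/Ei (0) the fit with the replicate number as a block gave 1, miR-1b-5p. Between naive strains (0) the count was 1 without C57BL/6 naive libraries 4 and 5, 1 with the block and 2 with DESeq2 (miR-1a-2-5p and miR-206-3p). It was 0 to 1 without single libraries. The DESeq2 call of miR-1a-2-5p is not independent of the filter, which that arm passed through C57BL/6 naive libraries alone. Between injured strains (0) it was 2 with those groups alone. For injury averaged over strains (1) it was 0 under either other scaling, 7 without naive libraries 4 and 5, 7 with the block, 2 with edgeR, 4 with DESeq2 and 0 with edgeR without injured library 1. Without single libraries it was 0 to 4. The difference between strains in injury effect called 0 muscle miRNAs in all 26 alternatives. Correlated pairs (16) numbered 9 under scaling to 1000000, 9 without naive libraries 4 and 5, and 4 to 22 without single libraries. On deviations 0 pairs were called in all 19 alternatives. The 7 mean ratios moved by less than 1 SD in all 15 alternatives. These only left out libraries and could not have moved a mean that far, so they do not measure stability. Counts over all tested miRNAs ran over the alternatives from 3 to 79 for injury in C57BL/6 (20), 3 to 21 in CAST/Ei (7), 21 to 148 between naive strains (71), 15 to 105 between injured strains (21), 15 to 59 for averaged injury (27) and 0 to 9 for the difference in injury effect (0). The cause of these changes was not tested.

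Values that turned direction were small and not called. In C57BL/6, miR-1a-3p was 0.051 when scaled to 1000000 and −0.443 to 0.0581 without single libraries. miR-499-5p was −0.0589 with edgeR, −0.0359 with DESeq2 and −0.0707 to 0.417 without single libraries. In CAST/Ei, miR-206-3p was 0.050 scaled to 1000000, 0.0233 without the 3 most abundant miRNAs and −0.349 to 0.00179 without single libraries. miR-499-5p was −0.122 to 0.306 without single libraries. miR-1b-3p was 0.133 scaled to 1000000, 0.113 without the 3 most abundant miRNAs, 0.0208 with DESeq2 and −0.219 to 0.0588 without single libraries.

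The block keeps C57BL/6 naive libraries 1 to 3 only, so it also leaves out libraries 4 and 5. Over all combinations of the 4 groups, 18 same-numbered correlations of deviations ran from −0.194 to 0.555, with 10 over 0.1. C57BL/6 injured with CAST/Ei naive libraries, which were not compared directly, also had each value over 0.1 (0.555, 0.267 and 0.108). The other groups compared directly did not. The block was fitted over all 4 groups at once, so its values for those comparisons rest on numbers that the rule did not pair. Groups of 3 libraries and the depth of 4007706 reads in the shallowest limit what can be called for arms near the floor of 3 reads.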
